A study of Arabidopsis thaliana with 6 samples.

Results

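The membrane transporters of Arabidopsis measured here are 15 genes, of 13356 genes that a probe set named alone, and they were chosen by symbol: a gene was taken when its symbol began with 1 of a set of transporter family prefixes (ABC subfamilies, nitrate, ammonium, phosphate, sulfate, sugar, potassium, cation/H+, metal, oligopeptide, purine and aquaporin families) and held a number. The symbols brought in 5 genes of metal families (MTP11, MTPA1, ZIP6, ZIP9 and NRAMP5), 7 cation/H+ exchangers (CHX15, CHX16, CHX19, CHX20, CHX21, CHX6B and chx28), the nitrate transporter NRT2.5, the purine permease PUP15 and PIPK11. PIPK11 matches the prefix PIP of the plasma membrane aquaporins, but its name stands for a phosphatidylinositol phosphate kinase, so 14 of the 15 are transporters by name. Each gene had 1 probe set. The same symbol rule finds 329 genes in RefSeq. The rest of them, whether of the families above or of others (ABC, AMT, PHT, SULTR, SUC, STP, KUP, NHX, OPT, TIP and NIP among them), were not analysed here. Counts per family or class below stand for the 15 genes and not for whole families.

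Total RNA came from rosettes of cat2-2, a mutant in the Col-0 background with impaired function of the main leaf catalase, and was hybridised to 6 Affymetrix ATH1 arrays. The untreated group held 3 biological replicates taken at 0 h from plants 21 days old, grown with 16 h of light per day at 100 µmol m-2 s-1 on medium with 1% sucrose. The treated group held 3 biological replicates sampled at 24 h and 22 days of age, from plates wrapped in film to restrict gas exchange and kept in unbroken light of the same intensity, which the submitters call photorespiratory conditions. Every replicate pooled at least 15 rosettes, and every plate also carried plants of a second genotype, which was not analysed here. Both groups carry the catalase mutation, and the sealing, the continuous light and the extra day of age cannot be told apart in this comparison. The question is how transcript levels of the mutant differ after the treatment.

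Transport across plant membranes is driven largely by proton gradients that H+ pumps build up. Cation/H+ exchangers (CHX) move potassium and other monovalent cations against protons, and many of the family are known mainly from pollen. ZIP proteins bring zinc, iron and other metals into the cytosol, NRAMP proteins move manganese and iron, and MTP proteins of the cation diffusion facilitator family move zinc or manganese out of the cytosol. NRT2 proteins take up nitrate with high affinity, and purine permeases (PUP) carry purines and related compounds such as cytokinins.

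Values are log2 levels per probe set computed by the authors with RMA, and a difference is the treated mean minus the untreated mean, so that a difference of 1 stands for a 2-fold change. Each was tested with limma in one fit over all 22746 probe sets with Benjamini-Hochberg adjustment, and a gene is said to have changed where the adjusted p lay under 0.05. Values after ± give the standard error (SE) of a log2 difference, intervals are 95% intervals from the same fit, and n is 3 arrays per group throughout.

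Of 10 listed leaf markers 7 were measured, and their probe sets lay at or above the 99.1th percentile of mean level; the root hair markers EXPA7 and EXPA18 lay at the 25.8th and 39.6th, although levels of different probe sets cannot be set against each other directly. Of the 7 leaf genes 4 fell and 0 rose (57.1%), where 22.2% of all probe sets fell and 65.9% of the brightest decile changed in either direction. Their summed linear level ran from 86111 to 87727 in untreated and from 73849 to 78237 in treated arrays, and without LHCB4.2, which fell most, from 70199 to 72160 and from 66015 to 69333. RCA, the activase of Rubisco, differed by 0.19 with groups that did not overlap, but did not pass (adjusted p = 0.0625). Markers of the root endodermis and stele, of phloem and xylem and of flowers had no measured member here. Array medians lay between 6.22 and 6.27.

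MTP11 was the only one of the 15 genes that changed in this fit. Its transcript, for a manganese carrier of Golgi-related and prevacuolar compartments known for manganese tolerance, was 1.27-fold higher in treated rosettes. In the same fit 41.7% of all probe sets changed, 19.4% higher and 22.2% lower, against 1 of 15 members (6.67%). Of the genes with 1 probe set each, 37.7% changed, and of the 1556 genes with a symbol other than a locus tag, 51.7%. MTP11 was also the only member whose groups did not overlap, where 50.8% of all probe sets did not.

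Most of the members were dim beside other probe sets, although brightness also depends on the probes themselves. Of the 15, 12 lay below the median level of all probe sets and 11 among the dimmest 40%, where 14.4% of probe sets changed, 5.51% higher and 8.88% lower. None of these 11 members changed (limma, adjusted p from 0.239 to 0.971), and 0 had an unadjusted p under 0.05, as 47.6% of all probe sets had. In the brightest 60%, where 59.9% of probe sets changed, stood MTP11 (96.5th percentile), CHX20 (70.4th), ZIP6 (51.9th) and PUP15 (41.4th), of which 1 changed. The share of changed probe sets was 2.59% in the dimmest decile, which held 3 members, and 65.9% in the brightest decile, which held MTP11. Whether the dim members are transcribed in these rosettes at all was not tested, since the deposited values carry no detection call.

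**Figure D1:**
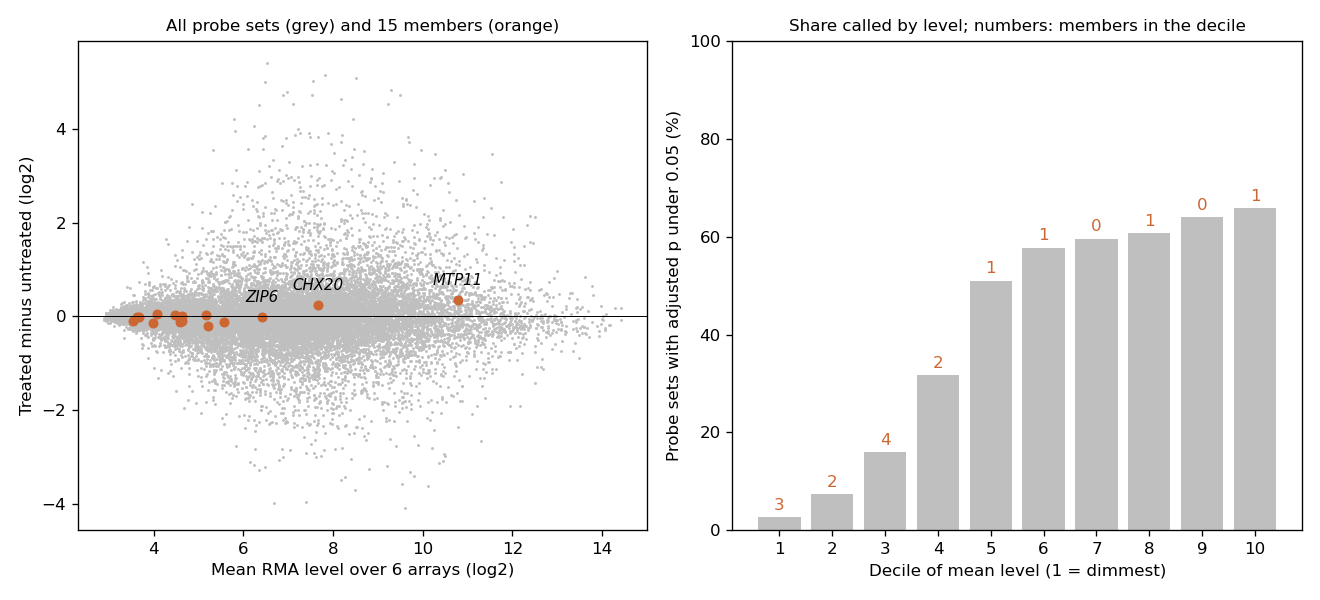
Left, treated minus untreated difference (log2) against mean RMA level over the 6 arrays (log2) for all 22746 probe sets in grey and the 15 members in orange. Right, bars give the percent of probe sets with an adjusted p under 0.05 in each decile of mean level, and the numbers above them count the members there: 11 of 15 sit in the 4 dimmest deciles.

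Among the metal genes, MTP11 read 10.74, 10.57 and 10.50 on the untreated arrays and 11.02, 10.93 and 10.91 on the treated ones. Every treated array lay above every untreated array. The difference was 0.35 ± 0.08 on the log2 scale (interval 0.16 to 0.53; limma, adjusted p = 0.00622), and 32.1% of probe sets had a larger difference in either direction. An exact two-sided permutation test over the 6 arrays gave p = 0.1, the smallest that 3 against 3 allow. The call held without any single array (log2 0.29 to 0.41, adjusted p from 0.00325 to 0.0307) and under each of the other settings tried, except limma's test against a log2 size of 0.5, which exceeds the difference itself (adjusted p = 1).

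ZIP6, of the zinc and iron carriers, was of middling brightness, with 6.48, 6.36 and 6.41 in untreated and 6.41, 6.24 and 6.58 in treated rosettes. The untreated values fell inside the span of the treated ones, and the difference was -0.01 ± 0.09 (interval -0.22 to 0.20; adjusted p = 0.957). ZIP9, known in Arabidopsis as a gene induced by zinc deficiency, read 4.83, 4.65 and 4.56 untreated and 4.56, 4.44 and 4.73 treated, with overlapping groups. Its difference was -0.10 ± 0.10 (interval -0.32 to 0.12; adjusted p = 0.482). The measured regulator of that response, bZIP19, was much brighter relative to other probe sets (84.5th percentile) and differed by 0.05 (interval -0.13 to 0.22; adjusted p = 0.708), with 8.72, 8.81 and 8.65 untreated and 8.74, 8.82 and 8.74 treated.

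NRAMP5, a family relative of manganese and iron importers, read 4.57, 4.66 and 4.69 untreated and 4.56, 4.58 and 4.79 treated. Its difference of 0.01 was the smallest of the 15 in size (interval -0.19 to 0.20; adjusted p = 0.971). MTPA1, of the same family as MTP11, read 3.57, 3.70 and 3.67 untreated and 3.56, 3.58 and 3.74 treated, at the 7.18th percentile of brightness. Its groups overlapped too, and the difference was -0.02 (interval -0.20 to 0.16; adjusted p = 0.900). The interval of MTP11 reached down to 0.16 and that of MTPA1 up to 0.16, and the difference between the responses of these family members was not tested.

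**Figure D2:**
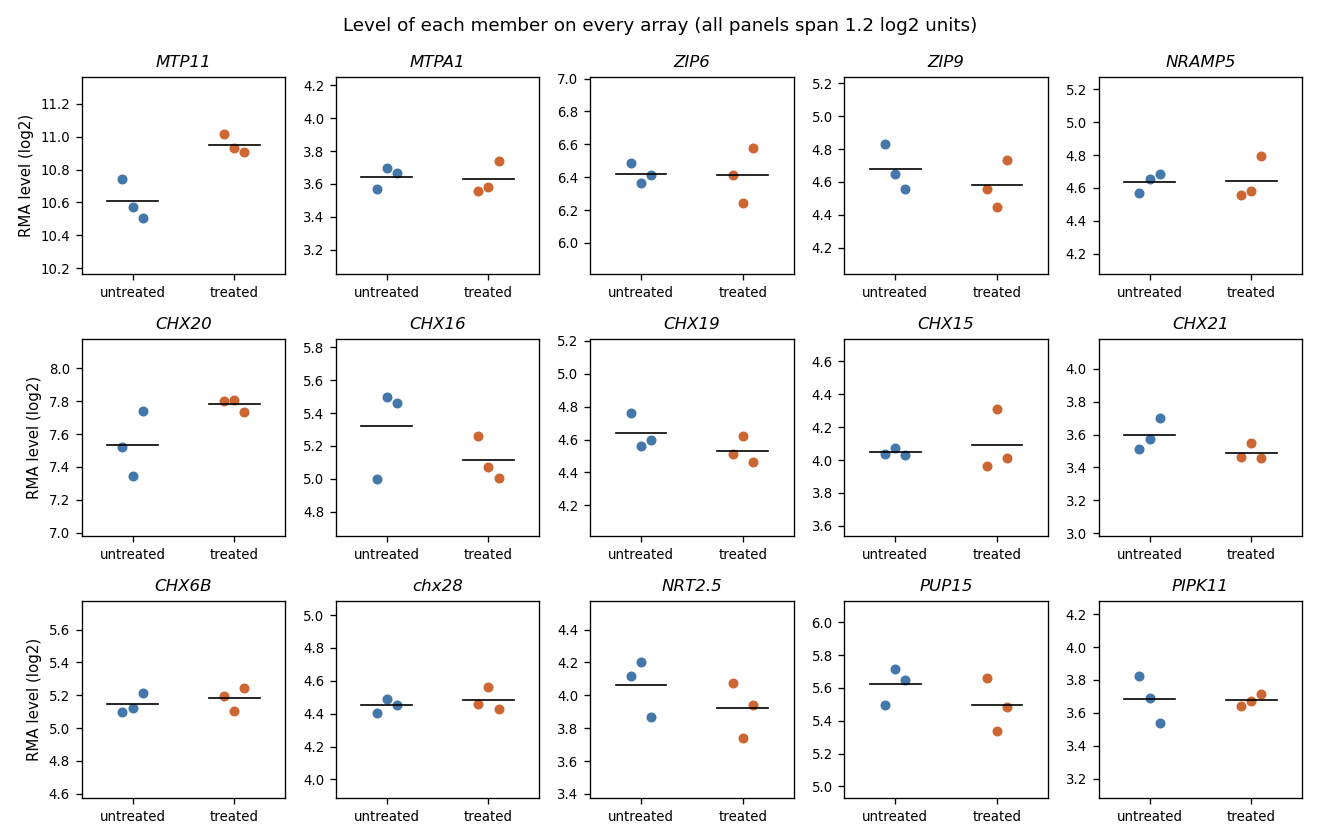
RMA level (log2) of each of the 15 members on every array, with untreated arrays in blue, treated arrays in orange, and the mean of 3 as a black line; every panel spans the same height. In the MTP11 panel the treated points (10.91 to 11.02) lie above the untreated ones (10.50 to 10.74), and in the other 14 panels the groups overlap.

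None of the 7 cation/H+ exchangers passed the threshold; 1 of them, CHX20, had an unadjusted p under 0.05. CHX20, known in Arabidopsis for potassium and pH balance in guard cells, read 7.52, 7.35 and 7.74 on the untreated and 7.80, 7.81 and 7.73 on the treated arrays. The treated values lay close together, and untreated replicate 3 lay just above the lowest of them. The difference was 0.25 ± 0.10 (1.19-fold; interval 0.03 to 0.46; limma, adjusted p = 0.0702).

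Whether CHX20 passed depended on how the arrays were scaled and on 1 array. It passed once the arrays were shifted to equal medians (0.27, adjusted p = 0.0424), and when they were anchored on all poly(A) spikes (0.30, adjusted p = 0.0241), or on the brighter of these spikes (0.40, adjusted p = 0.00479). Anchoring on the bacterial hybridization controls gave 0.35 (adjusted p = 0.0283), although adjusted p there cannot be set directly beside those of the main fit. Without untreated replicate 3 it also passed (0.35, adjusted p = 0.0114), and without untreated replicate 2 the difference was 0.15 (adjusted p = 0.252). Of the markers of the guard cell lineage 3 were measured: SPCH, which starts the lineage, fell by 0.49 on the log2 scale (adjusted p = 0.000643), while MUTE (0.11) and FMA (0.14) did not pass. On the brighter poly(A) spikes, one of the scalings in which CHX20 passed, MUTE (0.26, adjusted p = 0.0389) and FMA (0.30, adjusted p = 0.0177) passed as well. That anchor raised every difference by 0.15, and the probe sets called higher went from 4420 to 7394 of 22746. The summed linear level of the 3 markers ran from 121 to 134 in untreated and from 124 to 127 in treated arrays. Their part in the CHX20 values was not tested. In whole rosettes, a change in the number of cells of a type and a change in RNA per cell cannot be told apart.

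CHX16 had the widest spread of the members, at 4.9997, 5.50 and 5.46 untreated and 5.26, 5.07 and 5.005 treated. Untreated replicate 1 stood far below the other untreated arrays and level with the lowest treated one. The difference was -0.21 ± 0.13 (interval -0.49 to 0.08; adjusted p = 0.239), and without untreated replicate 1 it was -0.37 (adjusted p = 0.0131). CHX19, like CHX16 and CHX20 of a subgroup tied to endomembranes, read 4.76, 4.56 and 4.60 untreated and 4.51, 4.62 and 4.46 treated, with overlapping groups and a difference of -0.11 (interval -0.29 to 0.08; adjusted p = 0.359).

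CHX21 was the dimmest member, at the 5.43th percentile, with 3.51, 3.57 and 3.70 untreated and 3.46, 3.55 and 3.46 treated. CHX15 read 4.04, 4.07 and 4.03 untreated and 3.96, 4.31 and 4.01 treated, so that treated replicate 2 stood apart from the other 5 arrays. Their differences were -0.11 and 0.05 (adjusted p = 0.343 and 0.756). CHX6B read 5.10, 5.12 and 5.21 untreated and 5.19, 5.10 and 5.24 treated. For chx28 the values were 4.40, 4.49 and 4.45 untreated and 4.46, 4.56 and 4.43 treated. Both had overlapping groups and differences near 0 (0.04 and 0.03, adjusted p = 0.769 and 0.783). Across the 7 exchangers 4 differences were above and 3 below 0, with a median of 0.03, against a median of -0.01 over all probe sets.

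NRT2.5, a high-affinity nitrate transporter known in Arabidopsis from plants starved of nitrogen, read 4.12, 4.205 and 3.87 untreated and 4.08, 3.74 and 3.94 treated. The groups overlapped at a dim level (15.2th percentile), and the difference was -0.15 ± 0.11 (interval -0.39 to 0.10; adjusted p = 0.344). PUP15 read 5.50, 5.72 and 5.65 untreated and 5.66, 5.34 and 5.49 treated. Here too the groups overlapped, with a difference of -0.13 ± 0.10 (interval -0.34 to 0.09; adjusted p = 0.362). PIPK11, the kinase, read 3.82, 3.69 and 3.54 untreated and 3.64, 3.67 and 3.71 treated, all inside the untreated span, with a difference of -0.01 (interval -0.20 to 0.19; adjusted p = 0.966).

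Each interval is a 95% interval for its own gene under the scaling of the main fit. The ends of these intervals are not a joint bound on the changes the arrays could have missed. They also do not cover the choice of scaling. On the brighter poly(A) spikes, an anchor that raised every difference by 0.15, CHX20 differed by 0.40 and CHX16 by -0.05. Over the 14 members that did not pass, the lowest end of an interval was -0.49 (CHX16) and the highest 0.46 (CHX20), which stands for 1.40-fold lower and 1.38-fold higher. SE ran from 0.08 to 0.13 over all 15, against a median of 0.09 over all probe sets. The median size of the difference, regardless of sign, was 0.10 over the members and 0.18 over all probe sets. Over the 11 dim members it was 0.05, and over the dimmest 40% of probe sets 0.08. For dim probe sets the interval covers the scatter between arrays on the RMA scale and not the narrowing of differences near background that RMA values are known for.

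**Figure D3:**
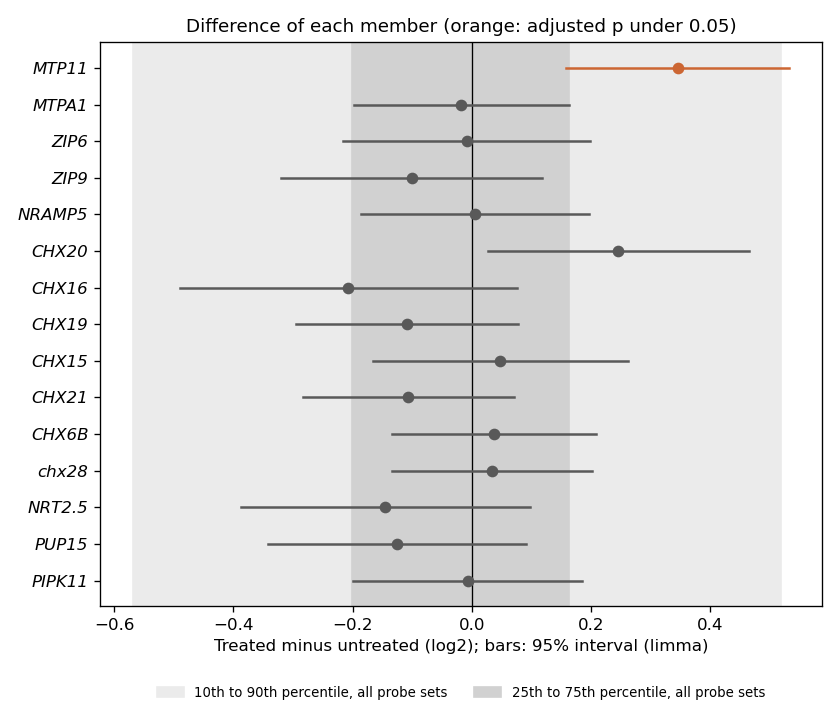
Treated minus untreated difference (log2) of each of the 15 members as a point with its 95% interval from limma; the grey bands span the 25th to 75th percentile (-0.20 to 0.16) and the 10th to 90th percentile (-0.57 to 0.52) of all probe sets. The interval of MTP11 (orange, 0.16 to 0.53) and that of CHX20 (0.03 to 0.46) exclude 0, and the other 13 include it.

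Other genes of transport and assimilation were read from lists of 129 entries on nitrogen, phosphate, sulfur, sugar, proton pumps and potassium channels, and metals. Of these, 27 genes were measured, 20 of them on the sugar list. The others were 3 on sulfur, 3 on proton pumps and potassium channels (all pump subunits) and 1 on metals, with 0 on nitrogen or phosphate. No member described above is a sugar or sulfate carrier by name. The lists were chosen with earlier results of these data known. Of the 27, 7 rose and 10 fell (63.0%), beside the 41.7% of all probe sets and the 51.7% of genes with a symbol. The 20 of them among the brightest 60% of probe sets, of which 59.9% changed, held all 17 calls, and the 7 dimmer ones held 0. The V-type H+ pump acidifies the compartments across whose membranes such exchangers work, and 3 isoforms of its membrane subunit a were measured. VHA-A3, of the vacuolar membrane, rose by 0.31 ± 0.09 (adjusted p = 0.0166), from 9.56, 9.38 and 9.56 to 9.66, 9.88 and 9.89. VHA-A2, also of the vacuolar membrane, fell by 0.37 on the log2 scale (SE 0.09, adjusted p = 0.00598), from 8.66, 8.62 and 8.38 to 8.22, 8.18 and 8.16. VHA-A1, of the trans-Golgi network, differed by 0.14 (interval -0.03 to 0.32; adjusted p = 0.187).

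For all 3 isoforms the treated arrays lay wholly on one side of the untreated ones, as they did for 50.8% of all probe sets. They lay above for VHA-A3 and VHA-A1 and below for VHA-A2. The call of VHA-A3 was lost without untreated replicate 2 (0.25, adjusted p = 0.0639) or treated replicate 2 (0.28) or 3 (0.27), and without moderation (adjusted p = 0.0811). That of VHA-A2 was lost on the hybridization controls (-0.26, adjusted p = 0.131) and on the brighter poly(A) spikes (-0.21, adjusted p = 0.124). Adjusted p on the hybridization controls cannot be set directly beside those of the main fit. VHA-A1 passed on the brighter spikes (0.29, adjusted p = 0.0127), an anchor that raised every difference by 0.15. Both vacuolar calls were lost in limma's test against a log2 size of 0.5, and that of VHA-A3 also at an adjusted p of 0.01.

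No sucrose (SUC) or hexose (STP) proton symporter was among the measured members. Other sugar carriers gave 20 measured genes, of which 5 rose and 7 fell (12 of 20, beside 41.7% of all probe sets). The 13 of them in the brightest 60% held all 12 calls (92.3%), where 59.9% of probe sets changed. This list too was chosen with earlier results of these data known. SFP1, of the ERD6-like sugar carriers, rose 2.18-fold (1.13 ± 0.11), from 9.15, 8.68 and 8.95 to 10.05, 10.08 and 10.02. SFP2 of the same family fell 1.31-fold, a call lost on the hybridization controls (-0.29, adjusted p = 0.0891). Adjusted p on these controls cannot be set directly beside those of the main fit. The vacuolar sugar importers TMT1 and TMT2 fell 1.19-fold and 1.82-fold, and the call of TMT1 was lost with arrays anchored on any of the control sets (-0.19, -0.09 and -0.14) and without untreated replicate 3 (-0.23) or treated replicate 1 (-0.22). Against a log2 size of 0.5 the calls of SFP2 and TMT1 were lost, and at an adjusted p of 0.01 that of TMT1. Among the SWEET sugar uniporters, SWEET2 rose 4.61-fold and SWEET13 fell 4.34-fold. In sulfate assimilation, with 3 of 12 entries measured, SIR rose 1.55-fold while APS4 fell 1.61-fold and APS3 1.39-fold. All 3 calls were lost in limma's test against a log2 size of 0.5. The call of APS3 was also lost with arrays anchored on the brighter poly(A) spikes (-0.32, adjusted p = 0.0775), without moderation (adjusted p = 0.129) and at an adjusted p of 0.01.

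**Figure D4:**
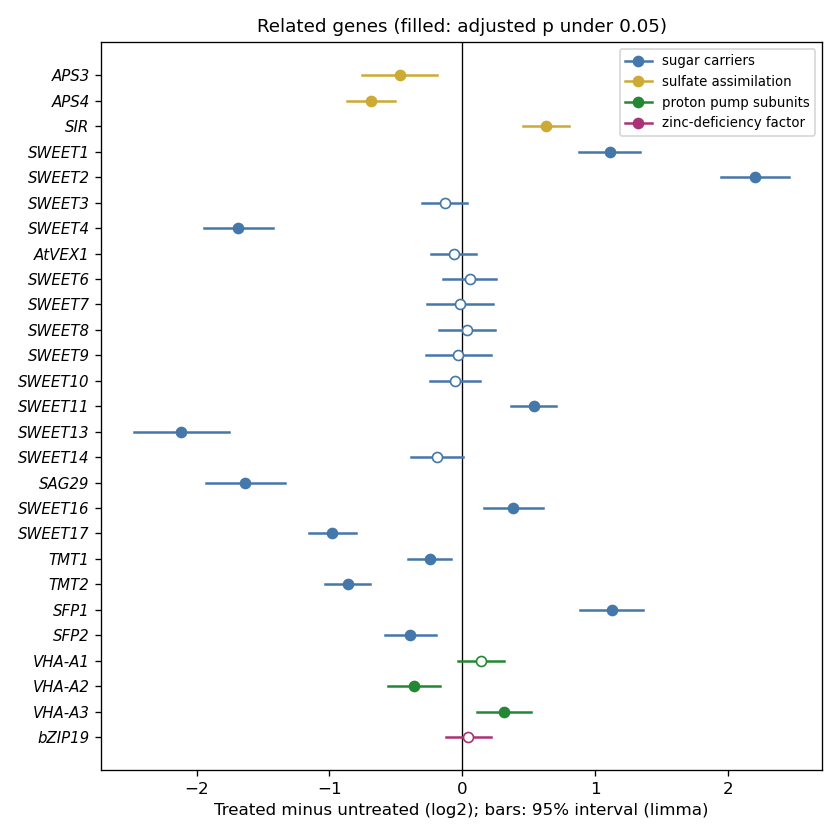
Treated minus untreated difference (log2) with its 95% interval from limma for the 27 measured related genes, coloured by list; filled points have an adjusted p under 0.05. AtVEX1 is listed as SWEET5 and SAG29 as SWEET15 among the synonyms, and the 3 VHA subunits spread over both sides of 0 (-0.37 to 0.31).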

How the data were processed

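The values are RMA log2 levels per probe set, deposited by the authors as one table of 6 arrays. The submitters' processing notes name RMA without a version, and the sources used here do not say which arrays were normalized together. RMA scales arrays to one distribution, so differences are relative to the bulk of transcripts, and it narrows differences of dim probe sets. Columns of other samples numbered 0.

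The 22810 probe sets include 64 control sets, which were set apart, and 22746 were tested with no filter. By the platform's annotation, with symbols renewed from RefSeq for TAIR10.1 (names only), 13513 named 1 gene, 503 several (1 of them with a symbol meeting the rule, not used) and 8730 were not listed. Where several probe sets named a gene, the one of highest mean over the arrays stood for it. Differences were tested with limma 3.58.1 (lmFit, eBayes) in R 4.3.3, with no covariates. Python 3.11.15 with pandas 2.3.3 and matplotlib 3.10.9 made the tables and plots. The fit was tested on simulated data. The members and lists were chosen with earlier results of these data known. Within each class the rule for named genes took the largest changes past the threshold, and since the members are few, every member is given. List entries matched by symbol or synonym. 1 entry, PS2, matched another gene of that name and was dropped. Replicates are labelled biological. The number of arrays limits the precision. No sequences are shown, since the tables used here hold none.

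Alternatives were the replicate block, leaving out the dimmest 40%, other scalings (equal medians, repeated quantile normalization, anchoring on 27 poly(A) spike sets, on the 13 of these brighter than the median probe set, or on 18 hybridization control sets), trend and robust or no moderation, array weights, no shared-probe sets, a stricter adjusted p (0.01), limma's treat against 0.5 on the log2 scale, and leaving out each array.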

Additional observations from a re-analysis of the deposited data

How the results depend on the processing

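The count of members higher (1, MTP11) was 2, with CHX20 added, after shifting arrays to equal medians and after anchoring on all poly(A) spikes, the brighter ones or the hybridization controls. It was 0 with treat at a log2 size of 0.5, which is larger than the difference of MTP11. Leaving out 1 array gave 1 to 2 higher and 0 to 1 lower (CHX16, without untreated replicate 1), against 0 lower with all arrays. Leaving out PIPK11 gave 1 higher and 0 lower. Of 274 member values under 19 alternatives, 267 kept their side of the threshold, 6 passed newly (CHX20, CHX16), 1 no longer passed (MTP11 with treat) and 0 turned a called direction. The stricter adjusted p and treat could only take calls away, so members not called could not change sides there. Among values not called in either setting the sign turned in 31, over 11 members. Of 561 values of related and guard cell genes, 28 calls were lost, 4 gained and 0 reversed.

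Over all probe sets, 4420 higher and 5059 lower became 7394 and 3323 (69.0% of calls higher, against 46.6%) on the brighter spikes, 4790 and 3185 (60.1%) on the hybridization controls, and 1319 and 1380 with treat. These anchors raised every difference by 0.15 and 0.11. Adjusted p on the hybridization controls cannot be set directly beside those of the main fit. For SWEET2 the limma adjusted p was 3.0e-27 there and 7.6e-08 in the main fit, at differences of 2.31 and 2.20, while all calls went from 9479 to 7975. Leaving out 1 array gave 3891 to 4141 higher and 4402 to 4780 lower. The causes were not tested.

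The labels do not say whether same-numbered samples were paired. In their deviations from the group means, same-numbered arrays correlated at 0.07, -0.06 and 0.0008. Differently numbered arrays correlated at -0.11 to 0.10. With 3 arrays per group these values cannot decide whether the samples were paired. With the replicate block, 4286 were higher and 4904 lower, and among members 1 and 0. Members have 1 probe set each and none has shared probes, so other choices of probe set gave no other value. Leaving out the dimmest 40% removed 11 of the 15.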

Other observations

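In the metal genes, treated replicate 3 held the highest of the treated values in 4 of 5 (all but MTP11), where over all probe sets it did in 30.9%. In the cation/H+ exchangers treated replicate 2 did so in 5 of 7, against 42.1% over all probe sets. Over all 15 members, treated replicates 3, 2 and 1 held the highest treated value in 6, 5 and 4. These counts were made, and the replicate given for each class was picked, after the values were seen.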
